A study of Mus musculus with 18 samples.

Results

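Proteasome gene expression was compared between tumours of TRAMP mice, a transgenic model of prostate adenocarcinoma, and normal mouse prostate. The genes were taken by symbol: every gene of the Psma, Psmb, Psmc, Psmd, Psme, Psmf and Psmg families with a probe set naming that gene alone, without the immunoproteasome genes Psmb8, Psmb9 and Psmb10. This gave 44 genes on 96 probe sets, of 18193 genes so measured. Of these, 42 passed the filter on low values, among 12793 genes tested. Psma8 and Psmb11, which encode the testis and thymus forms of core subunits, did not pass. Psme2 was not analysed here.

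The samples were 9 TRAMP tumours, from mice whose prostate epithelium expresses SV40 T antigens under the rat probasin promoter. These were set against 9 samples of normal prostate, labelled as ventral and dorsolateral lobes together. Strain, age and the number of animals are not given in the sources used here, and the labels do not state that each sample is a different mouse. The p-values therefore rest on the scatter among these arrays, which may be technical. Total RNA of each sample went on 1 Affymetrix array. Values are log2(signal + 16), where the signal is a MAS5 intensity; the added 16 shrinks fold changes of dim genes. Levels of different probe sets cannot be set against each other, so every comparison below is of 1 probe set between samples.

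The proteasome degrades proteins tagged with ubiquitin. Its core particle is a barrel of alpha rings, which gate the entrance, around beta rings, which hold the cutting sites. The regulatory particle caps the barrel: ATPases of its base unfold the substrate and feed it in, and its lid removes the ubiquitin. Dedicated chaperones assemble both particles and then leave. Dividing tumour cells and secretory epithelium such as prostate both make much protein, and the proteasome serves each of them by removing faulty and short-lived proteins.

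On every array the 2% trimmed mean of the signal was 500. Poly-A spike controls were bright on tumours 1 to 5 and normal prostates 1 to 6 and dim on the other arrays. The actin 3' to 5' difference (log2), which grows as RNA degrades, averaged 1.12 ± 0.506 in tumours and 1.71 ± 0.692 in normal prostates (SD, n = 9 each). Of 9 prostate epithelium markers 7 passed the filter, of which 4 were lower in tumours and none higher, and the mean of all 9 ran from 7.24 to 10.87 in tumours and from 8.23 to 13.61 in normal prostates. Pbsn, the defining prostate gene, did not pass the filter. It ran from 4.17 to 6.44 in tumours (median 4.49) and from 4.18 to 14.43 in normal prostates (median 10.79), so the groups overlapped. The epithelial keratin gene Krt8 ran from 7.72 to 14.04 in tumours (median 13.82) and from 13.15 to 14.35 in normal prostates (median 13.62). Krt8 was not called, and neither were Krt18 and Epcam. Normal prostate 9 had the lowest prostate mean of its group and the highest mean of seminal vesicle genes, 12.09; tumours 3, 5 and 7 had 15.08, 15.57 and 14.98 for those genes. All 4 tested adipocyte markers were lower in tumours, with a list mean of 6.22 to 9.70 in tumours and 6.49 to 13.32 in normal prostates. Of 10 myeloid markers 5 were higher and none lower, with a mean of 9.003 to 11.91 in tumours and 7.77 to 9.89 in normal prostates. The part of these cell types in the results for proteasome genes was not tested. Tumours 6 and 8 were the most alike of all pairs of arrays, with an SD of 0.436 between their log2 values, against 0.524 for the next pair.

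Proteasome genes differed little between tumours and normal prostate. At a limma adjusted p under 0.05 over all genes tested, 6 of 42 were called (14.3%), against 24.0% of all genes. Psma4, Psmd9 and Psme1 rose in the tumours, as 11.3% of all genes did, and Psmd5, Psmd7 and Psmd10 fell, as 12.7% of all genes did. The values of the 9 tumours and the 9 normal prostates did not overlap for 1 proteasome gene, Psmd5, and for 2.38% of all genes. By limma no other proteasome gene had an unadjusted p under 0.05. The exact permutation test over all 48620 splits of the arrays, adjusted over all genes, called the same 6; its unadjusted p was under 0.05 for 9, the others being Psmb1 (0.0275), Psme4 (0.0483) and Psmd6 (0.0487). The rises of Psma4, Psmd9 and Psme1 kept their direction but lost the call when arrays were centred on housekeeping genes (limma adjusted p = 0.193, 0.0616 and 0.0708) or when the actin difference was a covariate (0.0694, 0.11 and 0.132). The falls of Psmd5 and Psmd7 kept the call in both. The 9 housekeeping genes were not all steady. Sdha was itself called lower in tumours (-0.52). B2m, also one of the interferon-induced genes below, ran from 11.63 to 15.68 in tumours and from 14.24 to 14.88 in normal prostates. In bulk tissue, fewer cells of a type and less RNA per cell cannot be told apart.

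The size of the differences was small as well. The median absolute log2 fold change was 0.148 for the proteasome genes and 0.350 for all genes tested. The signed median was -0.04 for the proteasome genes and -0.01 for all genes, with 16 of 42 above 0; under quantile normalization it was 0.07 with 23 above 0, so it has no settled direction. The 95% interval of the fold change lay within 2-fold either way for 41 of 42 genes (97.6%), the exception being Psmd9, and for 60.5% of all genes. Among the 7823 genes at or above the mean level of the dimmest proteasome gene, this share was 63.9%. The median level of those genes was 10.03, against 11.46 for the proteasome genes, so the cut does not match them in level. A residual SD between arrays of 0.284 was the median for proteasome genes, against 0.421 for those 7823 genes and 0.468 for all genes. Probe sets of 1 gene could disagree: of 21 proteasome genes with over 1 kept probe set, 10 had all of them on one side of 0.

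**Figure D1:**
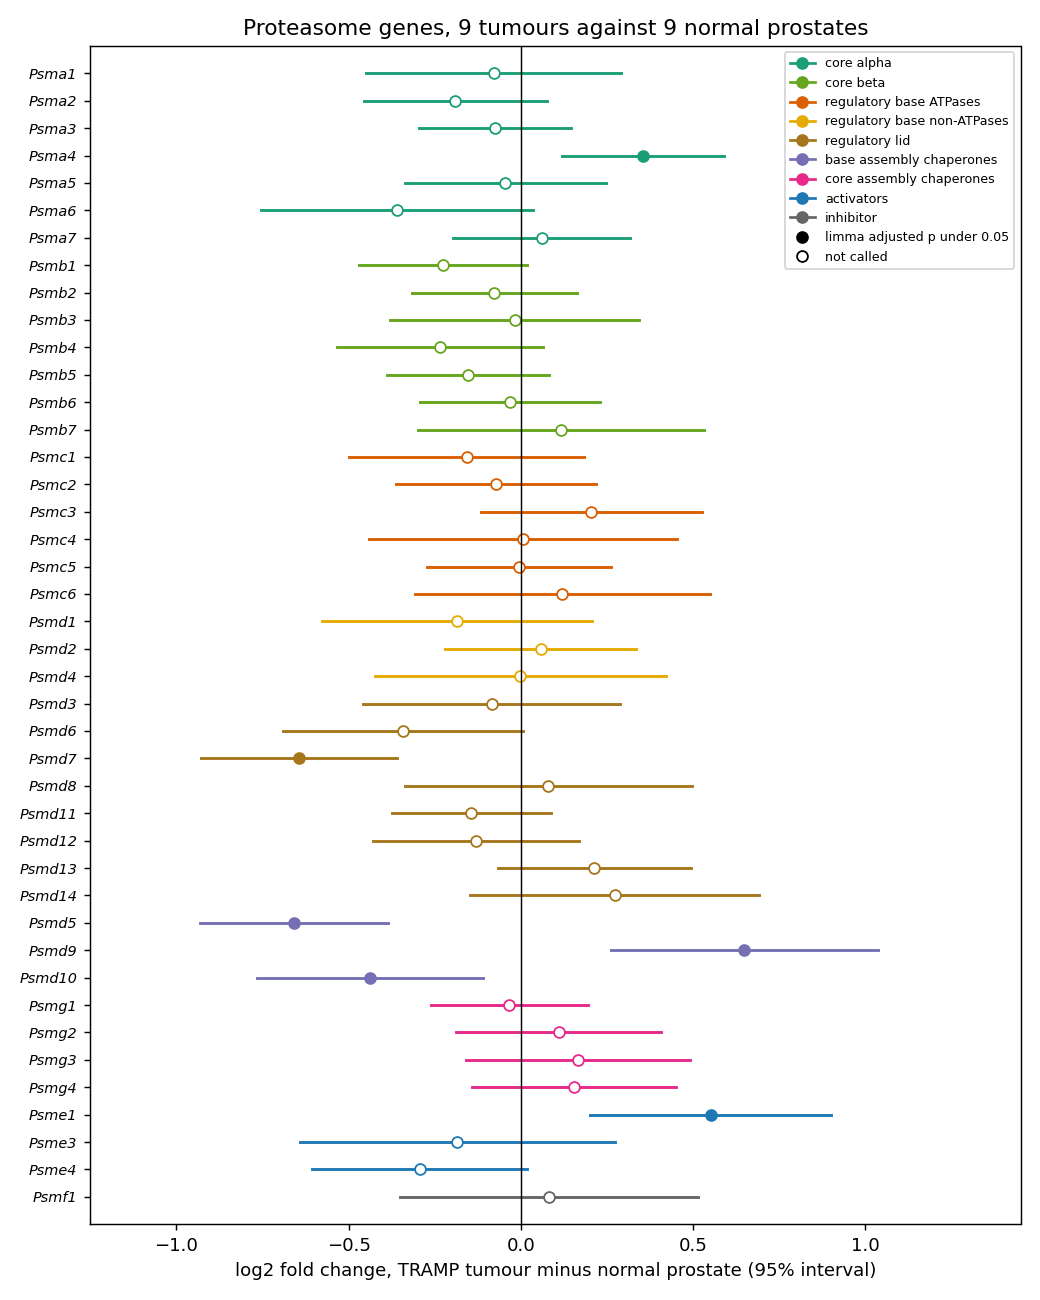
Log2 fold change of each of the 42 proteasome genes, TRAMP tumour minus normal prostate, with its 95% interval, coloured by role. Filled points are the 6 genes with a limma adjusted p under 0.05, and every open point lies within 0.36 of 0.

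The 7 alpha subunits form the outer rings of the core particle. Psma4 was the only one called. Its level ran from 11.91 to 12.63 in tumours, with a median of 12.15, and from 11.73 to 12.08 in normal prostates, with a median of 11.80. All 9 tumours lay above the mean of the normal prostates and 6 of them above every normal prostate; tumours 9 and 1 were highest. Psma4 had a log2 fold change of 0.35 ± 0.112 (SE, limma adjusted p = 0.0288). On the arrays with bright spike controls alone it was 0.38 (adjusted p = 0.067) and on those with dim ones 0.27 (adjusted p = 0.669). The fit on dim spike arrays alone called 0 of 12793 genes, so missing the threshold there sets no gene apart, here or below. Psma4 lost the call without tumour 1 and without normal prostate 5 or 6, with adjusted p up to 0.055, and when arrays were centred on the 75th percentile (0.0906).

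Psma6 had the most negative fold change of the core particle, -0.36 ± 0.189 (SE, limma adjusted p = 0.173). Tumours ran from 12.11 to 13.61 with a median of 12.93, and normal prostates from 12.92 to 13.59 with a median of 13.36. Tumours 5 and 7 were the lowest arrays, and the groups overlapped. Its probe set can match several transcripts, and 2 other probe sets of Psma6 gave 0.23 and 0.20. Psma1, Psma2, Psma3 and Psma5 had fold changes of -0.08, -0.19, -0.08 and -0.05, and Psma7, the last alpha subunit, had 0.06. None of these passed the test.

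The 7 beta subunits hold the proteolytic sites. Psmb5 carries the chymotrypsin-like site, Psmb6 the caspase-like site and Psmb7 the trypsin-like site. None of the beta subunits was called, and none had an unadjusted limma p under 0.05.

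Psmb5 ran from 11.22 to 11.68 in tumours, with a median of 11.56, and from 11.27 to 11.98 in normal prostates, with a median of 11.63. Its groups overlapped almost throughout, and the log2 fold change was -0.15 ± 0.112 (SE, limma adjusted p = 0.34, 95% interval -0.39 to 0.08). Psmb6 had 11.64 to 12.48 in tumours (median 11.87) and 11.66 to 12.23 in normal prostates (median 11.92). Tumour 9 stood above all other arrays for Psmb6, and the remaining arrays of both groups mixed; the fold change was -0.03 ± 0.125 (SE, adjusted p = 0.879). Psmb7 had 11.18 to 12.52 in tumours (median 11.53) and 11.47 to 11.94 in normal prostates (median 11.75), a fold change of 0.12 ± 0.198 (SE, adjusted p = 0.704). Its tumours lay on both sides of the normal prostates.

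Among the structural beta subunits Psmb1 and Psmb4 had the largest t. Psmb1 averaged 11.94 ± 0.26 in tumours and 12.17 ± 0.11 in normal prostates (SD, n = 9 each; log2 fold change -0.23, limma adjusted p = 0.164). Psmb4 averaged 13.33 ± 0.23 in tumours and 13.56 ± 0.32 in normal prostates (log2 fold change -0.24, limma adjusted p = 0.243). Psmb2 and Psmb3 differed by -0.08 and -0.02. For each of the 14 core genes the 95% interval stayed within 2-fold either way.

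The base of the regulatory particle holds 6 ATPases, the motor of the proteasome. Psmc1 to Psmc6 had fold changes of -0.16, -0.07, 0.20, 0.006, -0.0055 and 0.12, and none was called. Other kept probe sets gave 0.25 and 0.06 for Psmc2, 0.32 for Psmc4 and 0.44 and 0.65 for Psmc6, none of them called either. Psmc3 had the largest t: its 12.27 ± 0.32 in tumours and 12.07 ± 0.28 in normal prostates (SD, n = 9 each) gave a limma adjusted p of 0.347. Psmc1 followed, with 10.62 ± 0.42 in tumours and 10.78 ± 0.19 in normal prostates (limma adjusted p = 0.512); tumours 3 and 5 were its lowest arrays. Of the 3 other base subunits, Psmd1 and Psmd2, the scaffold of the base, had -0.19 and 0.06 (limma adjusted p = 0.501 and 0.785). Psmd1 averaged 10.96 ± 0.52 in tumours and 11.15 ± 0.19 in normal prostates, and Psmd2 11.55 ± 0.28 in tumours and 11.49 ± 0.20 in normal prostates (SD, n = 9 each). Psmd4, a receptor for ubiquitin chains, ran from 10.67 to 12.08 in tumours (median 11.45) and from 10.95 to 12.00 in normal prostates (median 11.21). Its fold change was -0.0016 ± 0.201 (SE, adjusted p = 0.997). Other kept probe sets of Psmd4 gave 0.18 and -0.76 (limma adjusted p = 0.533 and 0.0935 over all kept probe sets).

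In the lid, which holds 8 of the measured genes, Psmd7 was called. Psmd7 encodes the catalytically inactive partner of the deubiquitinase Psmd14. Its values ran from 9.48 to 10.34 in tumours, with a median of 10.01, and from 10.33 to 11.07 in normal prostates, with a median of 10.62. The groups touched at a single point: tumour 2, the highest tumour, just passed normal prostate 3, and the other 8 tumours lay below every normal prostate. Psmd7 had a log2 fold change of -0.64 ± 0.136 (SE, limma adjusted p = 0.00271), 1.56-fold higher in normal prostate. It was -0.63 (adjusted p = 0.035) on arrays with bright spike controls and -0.70 (adjusted p = 0.328) on those with dim ones. A second, dimmer Psmd7 probe set gave -0.27 (adjusted p = 0.396 over all kept probe sets).

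Psmd14 removes ubiquitin chains as the substrate enters. It ran from 11.16 to 12.69 in tumours (median 11.65) and from 11.31 to 11.76 in normal prostates (median 11.59), with a fold change of 0.27 ± 0.2 (SE, adjusted p = 0.338). Tumours 1, 2 and 9 lay well above all normal prostates, tumour 3 slightly above, and the other tumours mixed with them or lay lower. Psmd6 had 12.16 ± 0.40 in tumours and 12.50 ± 0.26 in normal prostates (SD, n = 9 each; log2 fold change -0.34, limma adjusted p = 0.141). Psmd3, Psmd8, Psmd11, Psmd12 and Psmd13 differed by -0.08, 0.08, -0.14, -0.13 and 0.21 and were not called. Psmd8 was 12.38 on normal prostate 9 and at most 11.71 on any tumour.

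Psmd5, Psmd9 and Psmd10 are the base assembly chaperones among the genes of this set. They bind ATPase subunits and are absent from the finished proteasome. All 3 were called, 2 lower and 1 higher in tumours, beside 24.0% of all genes, but the calls of Psmd9 and Psmd10 were lost under some of the alternatives. Psmd5 ran from 9.44 to 10.14 in tumours, with a median of 9.84, and from 10.30 to 10.84 in normal prostates, with a median of 10.45. Every tumour lay below every normal prostate; tumours 2 and 8 were lowest. Psmd5 had a log2 fold change of -0.66 ± 0.13 (SE, limma adjusted p = 0.00161), 1.58-fold higher in normal prostate. It was -0.69 (adjusted p = 0.0252) on arrays with bright spike controls and -0.58 (adjusted p = 0.358) on those with dim ones.

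Psmd10 encodes gankyrin, an ankyrin repeat chaperone also known as an oncoprotein in liver cancer. It ran from 8.71 to 9.81 in tumours, with a median of 9.31, and from 9.43 to 10.27 in normal prostates, with a median of 9.66. Tumours 9 and 1 were lowest, 6 tumours lay below every normal prostate, and tumours 3, 6 and 7 overlapped with them. The log2 fold change was -0.44 ± 0.156 (SE, limma adjusted p = 0.048). The call is at the edge: it was kept in 4 of the 18 fits that left out 1 array, with adjusted p between 0.0222 and 0.0922. The fold change was -0.32 (adjusted p = 0.249) on bright spike arrays and -0.67 (adjusted p = 0.406) on dim ones.

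Psmd9 carries a PDZ domain and ran the other way. Its level was between 9.13 and 9.95 in tumours, with a median of 9.35, and between 7.96 and 9.54 in normal prostates, with a median of 8.64. All 9 tumours lay above the mean of the normal prostates, of which 7 lay below every tumour; normal prostates 9 and 3 overlapped with the tumours. The log2 fold change was 0.65 ± 0.185 (SE, limma adjusted p = 0.0166), 0.88 (adjusted p = 0.0282) on arrays with bright spike controls and 0.22 (adjusted p = 0.741) on those with dim ones. Other probe sets of Psmd9 disagreed: 1 gave 0.61 (adjusted p = 0.0482 over all kept probe sets) and another -0.22 (adjusted p = 0.313). With the actin 3' to 5' difference as a covariate Psmd9 had 0.49 (adjusted p = 0.11).

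**Figure D2:**
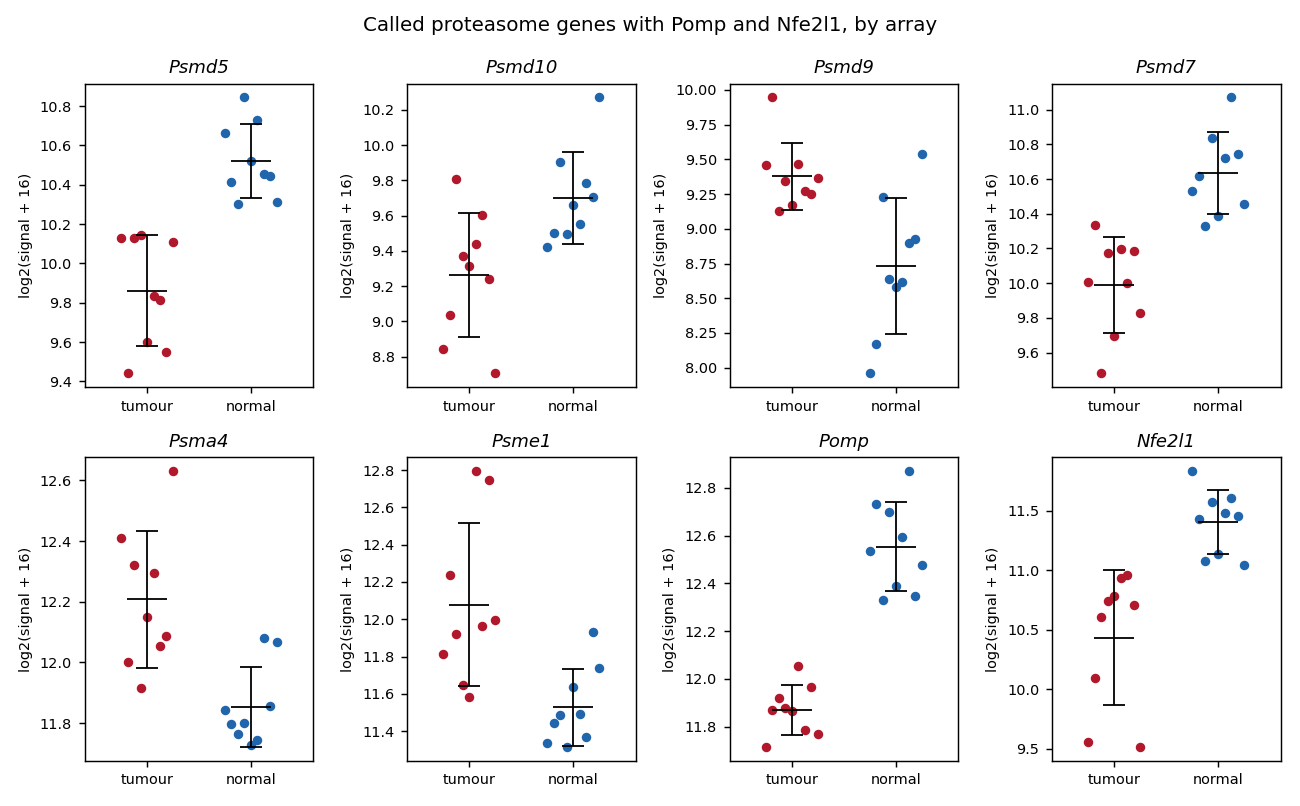
Level of the 6 called proteasome genes and of Pomp and Nfe2l1 on each array as log2(signal + 16), tumours on the left and normal prostates on the right, with mean and SD (n = 9 each); each panel has its own axis. The tumours lie below all normal prostates for Psmd5, Pomp and Nfe2l1.

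The promoter windows of these chaperones are shown because their genes were all called but in both directions. They are the 250 bases before the start in RefSeq (GRCm38.p6), for Psmd5 at chr2:34870963-34871212 on the minus strand, for Psmd10 at chrX:140956712-140956961 on the minus strand and for Psmd9 at chr5:123227940-123228189 on the plus strand. The start used for Psmd5 lies 3 bases from the end of the gene in the RefSeq gene table. Capitals mark the motifs searched on both strands: CCAAT, the box bound by NF-Y; CCGGAAG, the core bound by ETS factors; and TGACNNNGC, the antioxidant response element core bound by Nfe2l1 and Nfe2l2.
Psmd5: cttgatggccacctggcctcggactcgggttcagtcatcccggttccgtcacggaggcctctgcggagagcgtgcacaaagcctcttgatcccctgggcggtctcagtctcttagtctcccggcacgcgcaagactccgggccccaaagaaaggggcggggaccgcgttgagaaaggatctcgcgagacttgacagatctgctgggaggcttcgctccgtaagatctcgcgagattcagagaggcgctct
Psmd10: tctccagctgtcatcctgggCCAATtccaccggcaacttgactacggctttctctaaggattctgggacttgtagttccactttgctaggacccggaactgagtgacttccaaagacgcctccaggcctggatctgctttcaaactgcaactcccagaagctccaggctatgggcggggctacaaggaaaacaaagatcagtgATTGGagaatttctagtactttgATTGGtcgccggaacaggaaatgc
Psmd9: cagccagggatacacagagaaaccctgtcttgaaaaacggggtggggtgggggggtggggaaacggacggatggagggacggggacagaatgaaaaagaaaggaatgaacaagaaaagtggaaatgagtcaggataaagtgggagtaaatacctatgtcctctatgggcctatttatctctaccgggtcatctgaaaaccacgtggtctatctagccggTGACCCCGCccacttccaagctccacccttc
Psmd5 held none of the motifs, Psmd10 held CCAAT at 3 places and Psmd9 held TGACNNNGC at 1. The windows share no motif of those searched.

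Core assembly chaperones Psmg1, Psmg2, Psmg3 and Psmg4, which build the alpha ring, showed no such differences. Their fold changes were -0.03, 0.11, 0.17 and 0.15, and none was called. Psmg4 averaged 9.59 ± 0.32 in tumours and 9.44 ± 0.21 in normal prostates (SD, n = 9 each; limma adjusted p = 0.45), and Psmg3 9.95 ± 0.33 in tumours and 9.79 ± 0.29 in normal prostates (limma adjusted p = 0.463).

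Pomp, which is no member of the set, is the chaperone that matures the beta ring and is itself degraded by the finished core. It ran from 11.72 to 12.06 in tumours, with a median of 11.87, and from 12.33 to 12.87 in normal prostates, with a median of 12.53. No tumour reached the lowest normal prostate. The log2 fold change was -0.68 ± 0.102 (SE, limma adjusted p = 0.000214), 1.61-fold higher in normal prostate. Nfe2l1, the transcription factor that induces proteasome genes when the proteasome is inhibited, had 9.52 to 10.96 in tumours (median 10.71) and 11.04 to 11.83 in normal prostates (median 11.45). Tumours 9 and 1 were lowest, and the groups did not overlap. Its fold change was -0.97 ± 0.207 (SE, limma adjusted p = 0.00295), 1.96-fold higher in normal prostate. Ngly1, the glycanase that processes the Nfe2l1 protein, had -0.63 ± 0.204 (SE, limma adjusted p = 0.033), with 8 of 9 tumours below the normal mean. Ngly1 lost the call in 8 of the 18 fits that left out 1 array. Among other alternatives, it also lost the call with the actin difference as a covariate (-0.48, limma adjusted p = 0.168). On bright spike arrays alone Ngly1 had -0.62 (limma adjusted p = 0.116).

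These were the only called genes of 25 measured other genes of the proteasome and ubiquitin system, all 3 lower in tumours and none higher, a share of 12%, beside 24.0% of all genes called and 12.7% called lower. That list holds the deubiquitinases Usp14 and Uchl5 (-0.12 and -0.06), the shuttle factors Rad23b, Ubqln1, Ubqln2 and Ubqln4 (0.21, -0.30, -0.12 and 0.16), the unfoldase Vcp (-0.28) and the lid subunit gene Sem1 (-0.12), none of them called. Its median log2 fold change was -0.12, beside -0.01 for all genes tested. Nfe2l2, the related stress factor, had -0.49 (limma adjusted p = 0.413).

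Activators bind the ends of the core in place of the regulatory particle. Psme1, a subunit of the interferon-inducible activator, rose. It ran from 11.58 to 12.79 in tumours, with a median of 11.96, and from 11.31 to 11.93 in normal prostates, with a median of 11.49. Tumours 6 and 8 stood at the top with 12.79 and 12.74, and 5 of 9 tumours lay above every normal prostate. Its log2 fold change was 0.55 ± 0.167 (SE, limma adjusted p = 0.0234), 0.39 (adjusted p = 0.0913) on arrays with bright spike controls and 0.70 (adjusted p = 0.418) on those with dim ones. Without tumours 6 and 8 it was 0.35 (adjusted p = 0.0569).

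The same arrays stood out for the immunoproteasome genes, whose products replace the catalytic beta subunits under interferon. Psmb8 had 11.96 and 12.17 in tumours 6 and 8, 7.92 in tumour 9 and 8.94 to 10.54 in the other tumours, against 8.80 to 10.01 in normal prostates. Psmb9 had 11.14 and 11.33 in tumours 6 and 8, 6.60 in tumour 9 and 8.28 to 10.04 in the other tumours, against 8.61 to 9.23 in normal prostates. Psmb10 had 11.19 and 11.24 in tumours 6 and 8, 8.38 in tumour 9 and 9.10 to 10.24 in the other tumours, against 9.83 to 10.67 in normal prostates. So all 3 genes were above every normal prostate in tumours 6 and 8 and below every one in tumour 9. Other tumours left the range of the normal prostates too: tumours 2, 3 and 7 lay above it for Psmb8, tumours 2, 3, 5 and 7 lay above it and tumour 1 below it for Psmb9, and tumours 1, 2, 4 and 5 lay below it for Psmb10. As groups, tumours and normal prostates did not pass the test: fold changes were 0.65, 0.49 and -0.28 (limma adjusted p = 0.298, 0.455 and 0.527). The mean of 10 interferon-induced genes moved with them, at 11.60 and 11.53 in tumours 6 and 8, 8.14 in tumour 9, 9.34 to 10.44 in the other tumours and 9.34 to 10.02 in normal prostates. Of those 10 genes, 1 was called higher and none lower. Their part in the result for Psme1 was not tested.

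**Figure D3:**
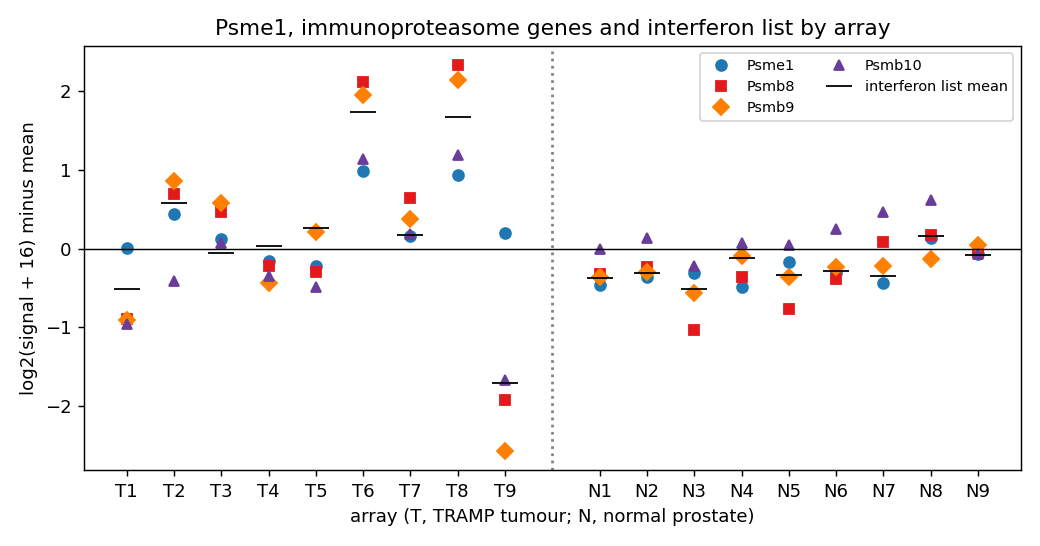
Psme1, Psmb8, Psmb9 and Psmb10 and the mean of 10 interferon-induced genes on each array, each as its deviation from its own mean over the 18 arrays (log2), tumours 1 to 9 on the left and normal prostates 1 to 9 on the right. Tumours 6 and 8 are high for all, tumour 9 is low for all but Psme1, and normal prostates stay close together.

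The other activators were not called. Psme3, the nuclear activator, ran from 7.56 to 9.38 in tumours (median 8.92) and from 8.57 to 9.17 in normal prostates (median 8.76), with a fold change of -0.18 ± 0.218 (SE, adjusted p = 0.569). Its lowest arrays were tumours 6, 7 and 8. Psme4, an activator acting on acetylated histones, ran from 10.60 to 11.77 in tumours (median 11.15) and from 11.14 to 11.71 in normal prostates (median 11.48), with -0.29 ± 0.149 (SE, adjusted p = 0.159). Psmf1, which encodes an inhibitor of the core, ran from 8.41 to 9.30 in tumours (median 8.95) and from 7.79 to 9.66 in normal prostates (median 8.84), with 0.08 ± 0.207 (SE, adjusted p = 0.805). On the probe set used for Psmf1 the normal prostates spread more widely than the tumours. Other kept probe sets of Psmf1 went the other way, with SDs of 0.53, 0.44 and 0.97 in tumours and 0.25, 0.27 and 0.35 in normal prostates. Their fold changes were -0.38, -0.19 and -0.52, and none was called.

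Few genes of either particle were called. Of the core genes, 1 of 14 was called (7.14%), of the regulatory genes 1 of 17 (5.88%) and of the accessory genes (chaperones, activators and inhibitor) 4 of 11 (36.4%), beside 24.0% of all genes. The median log2 fold change was -0.08 for the core, with a range from -0.36 to 0.35, and -0.0055 for the regulatory particle, with a range from -0.64 to 0.27. Core minus regulatory, the medians differed by -0.07, and by -0.14 to 0.04 over the alternatives, the largest gap being without the 4 arrays highest in seminal vesicle genes; this difference was not tested. Taken as a mean over genes on each array, core minus regulatory ran from -0.20 to 0.28 over the tumours and from -0.19 to 0.18 over the normal prostates, so the groups overlapped. Among arrays with dim spike controls it was -0.11 or lower on tumours 6, 7 and 8 and normal prostates 7, 8 and 9, and 0.06 on tumour 9. On bright ones it ran from -0.06 to 0.28. With the spike class as a block, the median fold changes were -0.0639 for the core and -0.0631 for the regulatory particle.

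Tumours differed among themselves more than normal prostates did. The SD over 9 arrays was larger in tumours for 36 of 42 proteasome genes (85.7%), as for 74.4% of all genes; its median was 0.320 in tumours and 0.201 in normal prostates. Tumour 9 was the highest of the 9 tumours for 17 proteasome genes and tumour 2 for 14. Counted by particle, tumour 9 was highest for 7 core and 8 regulatory genes and tumour 2 for 5 core and 6 regulatory genes. Over all 18 arrays these tumours were highest for 13 and 10 genes. The share of all genes highest on these arrays is not given here. Tumours 9 and 2 also had the lowest median signals, 159.0 and 166.0, against 171.8 to 222.2 on the other arrays. The part of this in the counts was not tested.

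Psmb7, Psmc4, Psmc6 and Psmd14 had the widest spread of the core and regulatory genes in tumours, with SDs of 0.572, 0.619, 0.595 and 0.584, against 0.151, 0.184, 0.162 and 0.142 in normal prostates. Psmd14 had 12.50, 12.45 and 12.69 in tumours 1, 2 and 9, 11.16 to 11.92 in the other 6 tumours and 11.31 to 11.76 in normal prostates. Psmc6 had 11.96, 12.28 and 12.28 in tumours 1, 2 and 9, 10.83 to 11.35 in the other tumours and 11.08 to 11.49 in normal prostates. For both genes these 3 tumours lay above every other array. Psmb7 had 12.51, 12.44 and 12.52 there, 11.18 to 12.16 in the other tumours and 11.47 to 11.94 in normal prostates. For Psmb7 too these tumours lay above every other array. For Psmc4 the gap was absent on the probe set used: 12.57, 12.90 and 13.40 in tumours 1, 2 and 9 met 11.41 to 12.69 in the other tumours and 12.11 to 12.57 in normal prostates. A dimmer Psmc4 probe set did show it. There tumours 1, 2 and 9 had 11.32, 11.63 and 11.47, against 10.32 to 10.74 in the other tumours and 10.37 to 10.76 in normal prostates.

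The mean of 8 genes of dividing cells was highest in the same tumours, at 12.01, 12.12 and 12.26 in tumours 1, 2 and 9, against 8.86 to 10.45 in the other tumours and 6.46 to 8.11 in normal prostates. All 8 of these genes were called higher in tumours. The mean of seminal vesicle genes was lowest in tumours 9 and 1, at 5.30 and 5.57, and reached 15.57 in tumour 5. Tumours 9 and 1 also had the highest mean of neuroendocrine genes, 11.33 and 10.98, followed by 9.58 in tumour 4, against 6.05 to 6.95 in the other tumours and 6.10 to 6.80 in normal prostates. Smooth muscle genes were lowest in tumours 9 and 2, at 8.54 and 8.56, against 11.14 to 14.28 in the other tumours and 10.09 to 13.84 in normal prostates. Their part in the spread of the proteasome genes was not tested. The 6 arrays high in seminal vesicle genes (tumours 3, 5, 6, 7 and 8 and normal prostate 9) were also left out. In that fit 38% of all genes were called, 2196 of the 12793 being higher, and 6 of the 42 proteasome genes were higher. Among these 6 were Psmd14 (0.77, limma adjusted p = 0.00628), Psmc6 (0.65, adjusted p = 0.0132) and Psmb7 (0.57, adjusted p = 0.0282). That leaves 4 tumours, 3 of them those named above, so these calls rest on the tumours in which the genes were already seen to be high.

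**Figure D4:**
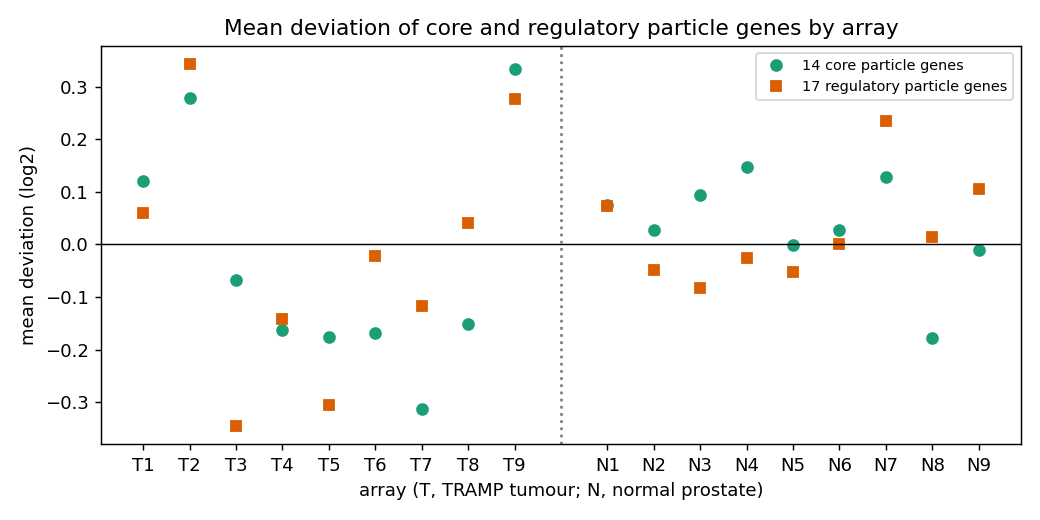
Mean deviation of 14 core and 17 regulatory particle genes from their means over 18 arrays (log2) on each array, tumours on the left and normal prostates on the right. Tumours 2 and 9 are highest for both particles, and tumours 3 and 7 are lowest for 1 particle each.

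**Figure D5:**
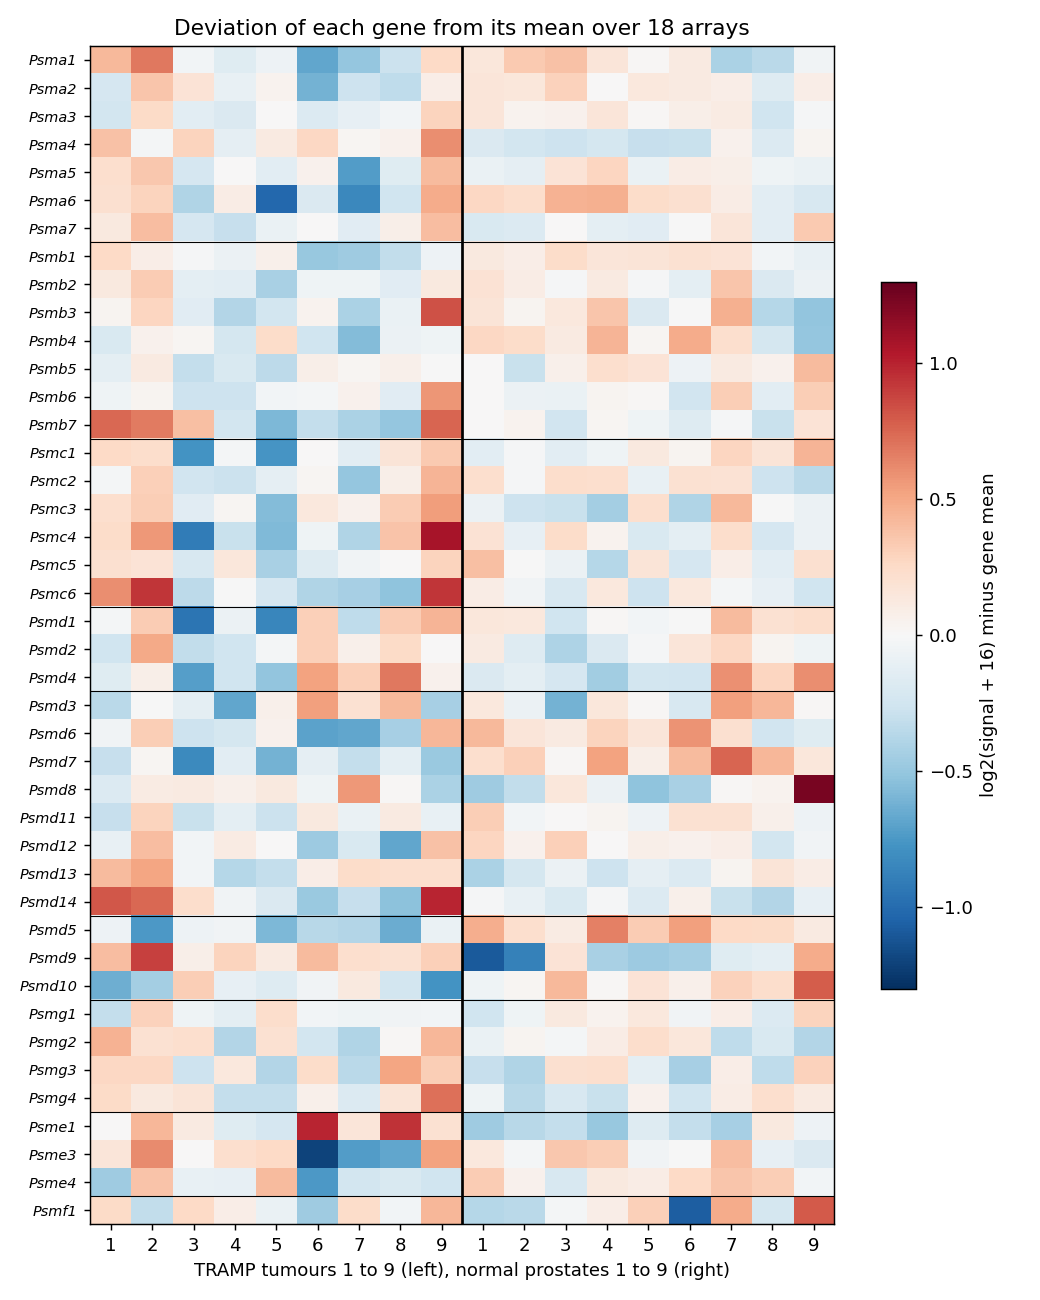
Deviation of each proteasome gene from its mean over 18 arrays (log2), tumours 1 to 9 left of the thick line and normal prostates 1 to 9 right of it, with genes in rows by role. Tumours 2 and 9 are red in many core and regulatory rows; Psmd5 lies below its mean in all tumours and above it in all normal prostates.

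Promoter windows of 35 of the 42 genes, 37 windows in all, could be read for the same motifs; none was used here for Psmb1, Psmb2, Psmb7, Psmc3, Psmd3, Psmd7 and Psmg2. CCGGAAG was in 13 of 37 windows (35.1%), against 6.91% of 32851 RefSeq windows of the same length. It was in 8 of 14 regulatory genes with a window, Psmc1, Psmc2, Psmc6, Psmd2, Psmd4, Psmd6, Psmd11 and Psmd12, in 1 of 11 core genes, Psma6, and in 3 of 10 accessory genes, Psme3, Psme4 and Psmg1. CCAAT was in 12 windows (32.4%), against 33.85% of all windows, among them those of 6 core genes. TGACNNNGC was in 5 windows (13.5%), against 10.16% of all: Psmb5, Psmb6, Psmc6, Psmd12 and Psmd9. The RefSeq windows were not limited to the genes tested here, nor matched to the proteasome genes in level or base content. A match is a run of letters and not a measured binding site.

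The window of Psmc6 is shown because it holds both CCGGAAG and, read on the other strand, TGACNNNGC, and because Psmc6 separated tumours 1, 2 and 9 from all other arrays. It lies at chr14:45329574-45329823 on the plus strand (GRCm38.p6, RefSeq), with the motifs in capitals.
Psmc6: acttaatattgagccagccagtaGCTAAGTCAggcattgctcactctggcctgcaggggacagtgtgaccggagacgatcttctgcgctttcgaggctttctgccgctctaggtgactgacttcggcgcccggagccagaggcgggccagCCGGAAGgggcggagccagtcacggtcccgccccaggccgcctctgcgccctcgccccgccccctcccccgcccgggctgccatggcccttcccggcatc
CCGGAAG begins 100 bases before the start used for this window and the TGACNNNGC match 227 bases before it. That start lies 1 base from the start of Psmc6 in the RefSeq gene table. Psmd14 and Psmb7 set the same tumours apart. Of the motifs searched Psmd14 held CCAAT alone, and no window was used here for Psmb7. Psmd12 held both CCGGAAG and TGACNNNGC but did not set these tumours apart: tumour 1 had 11.18, and normal prostates reached 11.59. Any link between motifs and tumours was not tested.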

How the data were processed

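Total RNA from 9 TRAMP tumours and 9 normal prostates was hybridised to Affymetrix arrays, per the labels. The deposited intensities are linear signals, 1 per probe set and array. Per the submitters' processing notes, the authors made them with MAS5, which scales each array by 1 factor and leaves dim probe sets noisy. Its settings are not given in the sources used here.

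Log2(signal + 16) was computed without further normalization. The array holds 45101 probe sets. In the platform annotation 34945 of them carry 1 gene symbol, and 932 carry several. All 42 genes matched RefSeq (GRCm38.p6) by Entrez identifier. Probe sets had to exceed their array's 40th percentile on 9 or more of the 18 arrays. Where several single-gene probe sets passed, the one with the highest mean stood for the gene. The test was lmFit and eBayes of limma 3.58.1 (R 4.3.3), two-sided, with group as the only term, on 12793 genes with Benjamini-Hochberg adjustment at 0.05. Adjusted p-values without a named tool are from this fit. The code was tested on simulated data. The number of arrays limits the precision.

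The members and lists were chosen with earlier results of these data known. Every member is named. Full values are given for members whose groups do not overlap, the 2 largest absolute t in each role, the catalytic subunits and Psmd4, Psmd14, Psme3, Psme4 and Psmf1, and for the immunoproteasome genes, Pomp, Nfe2l1 and Ngly1. Full values of Psmd10, array values of Psmc4 and Psmc6, and the other genes named with a fold change alone, were added after their values were seen. Adrm1 was not analysed here. Alternatives are in the closing section. Figures were drawn with matplotlib in Python 3.11.15.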

Additional observations from a re-analysis of the deposited data

Results flagged for a closer look

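Single arrays stood apart from the rest of their group (Dixon's test at the 95% level) in 4 of 96 groups of 9 values, where chance flags about 1 in 20. In tumours, Psmb6 was 12.48 on tumour 9, with the nearest tumour at 11.97, and Psmd9 was 9.946 on tumour 2, with the nearest tumour at 9.469. In normal prostates, Psma3 was 12.91 on normal prostate 8, with the nearest at 13.15, and Psmd8 was 12.38 on normal prostate 9, with the nearest at 11.3. Normal prostate 9 was also the one with high seminal vesicle genes, whose part in the Psmd8 value was not tested. None of the tests of these genes changed its call when the array in question was left out.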

How the results depend on the processing

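The alternatives numbered 39, of which 18 left out 1 array: pseudocounts, filters, scalings, array weights, blocks, covariates, other choices of probe set and subsets of the arrays. Psmd5 and Psmd7 kept their call and direction in each except the arrays with dim spike controls alone. Leaving out 1 array gave 2 to 3 members called higher, 2 to 3 called lower and 2455 to 3411 genes called in all; core minus regulatory median ran from -0.10 to 0.01. The main counts are 3 higher, 3 lower and 3067. Members called higher numbered 0 with housekeeping centring, 0 with the actin difference as a covariate, 1 on bright spike arrays alone, 0 on dim spike arrays alone and 6 without the 6 seminal vesicle arrays. Members called lower numbered 5 with array weights and 0 on dim spike arrays alone. All genes called numbered 1634 with the actin covariate, 4860 without the 6 seminal vesicle arrays and 0 on dim spike arrays alone (4 tumours, 3 normal prostates), where limma gave 1639 genes, 2 of them members, an unadjusted p under 0.05. At that level limma had 6 members with housekeeping centring and 7 with the actin covariate. With the replicate number as a block 1 member was called higher; same-numbered samples correlated between -0.0767 and 0.35, with 1 of 9 over 0.1, so the numbers were not taken as pairs. Of called genes 47.1% were higher in tumours, against 35.3% with centring on the 75th percentile and 32.4% on housekeeping genes. The 36 uncalled members passed the threshold in 7 of 1399 values, and 117 lay on the other side of 0, which was not counted as a change of call. Without tumours 6 and 8, an alternative added after seeing the data, 2 members were higher and 2 lower. The cause of these changes was not tested.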
